A study of Mus musculus with 2 samples.

Results

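Circadian clock and output genes were described in mouse liver cells: Arntl, Clock, Per1, Per2, Cry1, Ciart, Nr1d1, Nr1d2, Dbp and Tef, matched by gene symbol and all 10 found among the 31053 genes of the deposited count matrices. Single cells had been prepared from livers of C57BL/6 mice kept for 6.5 weeks on chow or on a NASH diet, a feed rich in fructose, fat and cholesterol that is used to model non-alcoholic steatohepatitis. Each diet was represented by 1 library, and the sources used here give neither the number of mice behind a library nor their age and sex. Collagenase digestion released the cells, Percoll separated them, and a 10x Genomics 3' kit made the libraries, per the labels. The sources used here also leave out the time of day and the feeding state at collection, and a difference in either cannot be told apart from the diet in any comparison of these libraries.

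The circadian clock is a feedback loop of transcription factors that gives most mammalian cells a daily rhythm of gene expression, and the liver is among the tissues in which it has been studied most. Arntl (also called Bmal1) and Clock pair to activate genes that carry an E-box in their promoters, among them the Per and Cry genes, whose proteins then repress the pair, and the genes of the nuclear receptors Nr1d1 and Nr1d2 (Rev-erb alpha and beta), which repress Arntl. The same pair drives Dbp, which with Tef and Hlf forms the PAR bZIP family, output factors that bind D-boxes and control many liver enzymes. In the mouse liver Arntl messenger RNA peaks around the start of the light phase. Dbp, Tef, Per and Nr1d transcripts follow later in the light phase or around its end, so the level of each depends on the hour at which a liver is taken. Liver clock genes also shift when feeding times shift.

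The promoter stretches below are shown because they hold the motifs through which the loop is known to act: the E-box of the Arntl and Clock pair in 4 of the 10 genes, and the D-box of the Dbp and Tef family in Per3, another gene of the loop. Sequences are from RefSeq promoter windows on build GRCm38.p6, which reach from 250 bases before to 50 after a start site. They run 5′ to 3′ along the gene's strand, and capitals mark the motif.
Ciart: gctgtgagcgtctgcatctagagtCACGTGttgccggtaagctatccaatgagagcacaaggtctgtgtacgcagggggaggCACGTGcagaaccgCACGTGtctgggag
Tef: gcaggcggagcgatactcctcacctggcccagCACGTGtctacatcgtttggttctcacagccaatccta
Per1: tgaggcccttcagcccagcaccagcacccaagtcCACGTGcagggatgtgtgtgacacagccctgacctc
Cry1: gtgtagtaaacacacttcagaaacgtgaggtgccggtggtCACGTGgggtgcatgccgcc
Per3: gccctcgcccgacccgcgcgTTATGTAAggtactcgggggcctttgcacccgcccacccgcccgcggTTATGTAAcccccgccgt
The Ciart stretch (chr3:95882259-95882368, minus strand) lies 140 to 31 bases before the start site and held 3 E-boxes, at 116, 58 and 44 bases upstream. The Tef stretch (chr15:81811244-81811313, plus strand) precedes the second of its start sites, with an E-box 138 bases upstream, and in Per1 (chr11:69098749-69098818, plus strand) the E-box starts 166 bases upstream. Both stretches lie in introns of longer transcripts of their own genes in GENCODE M21. The Cry1 stretch (chr10:85185095-85185154, minus strand) lies outside any annotated gene and its E-box starts 60 bases upstream. Per3 (chr4:151044806-151044890, minus strand) held 2 D-boxes, at 205 and 158 bases upstream, inside an annotated intron of Camta1. Ciart's stretch falls in an intron of the gene C920021L13Rik.

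The E-box was searched as CACGTG, which reads the same on both strands, and the D-box as TTATGTAA or TTACGTAA on either strand. Of 32851 windows of all genes, 7.15% held the E-box and 1.06% the D-box, and of 27025 genes 8.09% and 1.23% held them in at least 1 window. Windows were matched for 9 of the 10 genes, all but Per2. The E-box was in at least 1 window of Ciart, Tef, Per1 and Cry1 and in none of Arntl, Clock, Dbp, Nr1d1 and Nr1d2, and the D-box in 0 of the 9. No gene of the loop held both motifs, so no match overlapped another. A match describes the letters of the window only.

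The deposited chow matrix held 71635757 unique molecular identifiers (UMIs, each counting 1 captured RNA molecule) over 7359 cell barcodes, and the NASH diet matrix 39440182 over 5881. After filters on UMIs, genes, mitochondrial share and doublets, 4041 and 2305 barcodes were kept, of which 8 barcode sequences were shared between libraries. Clusters named from marker genes gave 2083 and 1073 hepatocyte-like cells, holding 46881800 and 22395483 UMIs, and 174 and 166 other cells, holding 980132 and 1030402. Hepatocyte-like clusters were nearly all from 1 library each, so a cluster and a diet cannot be told apart. Hepatocyte markers summed to 84596 CPM (UMIs of the genes per 1e6 UMIs of the cells) in the chow hepatocyte-like cells and 99096 in those of the NASH diet, with all 14 markers detected in both. The 13 endothelial markers summed to 3.82 and 7.86 CPM there, and the 14 markers of mononuclear phagocytes to 16.5 and 3.8 CPM, with Ccr2 at 0 in both. Higher sums came from erythroid (44.8 and 206 CPM), plasmacytoid dendritic cell (190 and 210 CPM) and cholangiocyte markers (63.8 and 61.2 CPM). Mesenchymal, cycling, neutrophil, T or NK cell and B or plasma cell markers summed to less than any of these. Median mitochondrial share was 18.0% in chow and 23.3% in NASH diet hepatocyte-like cells. With 1 library per diet there was no test: levels carry exact 95% Poisson intervals and log2 ratios an exact interval, which cover counting error only.

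In hepatocyte-like cells of the NASH diet library, Arntl was lower and the output factors Dbp and Tef were higher, together with the repressor genes Per2 and Ciart. Beyond 2-fold in either direction were 5 of the 10 genes, against 9.88% of all genes tested. Of the 10 genes, 4 were at least 2-fold higher with the NASH diet (Dbp, Ciart, Per2 and Tef), against 5.94% of the 11508 genes with at least 20 UMIs in both libraries together. Only Arntl was at least 2-fold lower, against 3.94% of the same genes. The other 5 lay within 2-fold. The median log2 ratio of the 10 genes was 0.31, against 0.12 over all genes tested.

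Arntl (chr7:113207465-113314126), a member of the activating pair on which the loop depends, gave 525 UMIs in the chow and 42 in the NASH diet hepatocyte-like cells. These are levels of 11.2 CPM (10.3 to 12.2) and 1.88 CPM (1.35 to 2.53), 5.97-fold higher in chow, with a log2 ratio of NASH diet over chow of -2.58 (-3.07 to -2.12). It ranked 68 from the lowest of the 11508 ratios. Clock (chr5:76209868-76304792), its partner, gave 1532 UMIs in chow (32.7 CPM, 31.1 to 34.4) and 557 with the NASH diet (24.9 CPM, 22.8 to 27.0). Its log2 ratio of -0.39 (-0.54 to -0.25) lay within 2-fold.

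The repressor genes split. Per2 (chr1:91415982-91459324), which with the Cry proteins holds the Arntl and Clock pair in check, gave 136 UMIs in chow and 314 with the NASH diet. Its level was 2.90 CPM (2.43 to 3.43) against 14.0 CPM (12.5 to 15.7), a log2 ratio of 2.27 (1.98 to 2.57). Ciart (chr3:95878503-95882251), a repressor of the same pair also called Chrono, gave 70 UMIs against 173, or 1.49 CPM (1.16 to 1.89) against 7.72 CPM (6.62 to 8.97). That is a 5.17-fold higher level, with a log2 ratio of 2.37 (1.96 to 2.79). Per1 (chr11:69095217-69109960), which glucocorticoids and feeding signals also induce, gave 355 and 158 UMIs, levels of 7.57 CPM (6.80 to 8.40) and 7.05 CPM (6.0 to 8.24). Its intervals overlapped, with a log2 ratio of -0.10 (-0.38 to 0.17). Cry1 (chr10:85131700-85185064) gave 305 and 166 UMIs, levels of 6.51 CPM (5.80 to 7.28) and 7.41 CPM (6.33 to 8.63), and a log2 ratio of 0.19 (-0.09 to 0.47), again with overlapping intervals. Of the 4 genes whose windows held an E-box, Ciart and Tef were thus at least 2-fold higher and Per1 and Cry1 within 2-fold.

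Both Rev-erb genes lay within 2-fold. Nr1d1 (chr11:98767932-98775333) gave 2516 UMIs in chow and 649 with the NASH diet, or 53.7 CPM (51.6 to 55.8) against 29.0 CPM (26.8 to 31.3). Its log2 ratio was -0.89 (-1.02 to -0.76), with no overlap of the intervals. Nr1d2 (chr14:18204054-18239127) gave 1742 and 1127 UMIs, levels of 37.2 CPM (35.4 to 38.9) and 50.3 CPM (47.4 to 53.3). Its log2 ratio was 0.44 (0.33 to 0.55).

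Among the 10 genes the ratio was highest for Dbp. Dbp (chr7:45705088-45710203), an activator of cytochrome P450 genes, gave 470 UMIs in chow and 1860 with the NASH diet. Its level was 10.0 CPM (9.14 to 11.0) against 83.1 CPM (79.3 to 86.9), 8.28-fold higher, with a log2 ratio of 3.05 (2.90 to 3.20), and it ranked 73 from the highest. Tef (chr15:81802421-81826863), of the same family, gave 897 and 1562 UMIs, levels of 19.1 CPM (17.9 to 20.4) and 69.7 CPM (66.3 to 73.3), 3.65-fold higher, with a log2 ratio of 1.87 (1.75 to 1.99). The intervals of the libraries overlapped for Per1 and Cry1 and not for the other members. The share of all genes without overlap was not computed, so this is not read as particular to these genes. With a pseudocount of 5 CPM, which weighs most on genes of low level, Ciart was at 0.97 and no longer beyond 2-fold, and Arntl was at -1.24. Relative to the median of all genes Nr1d1 was at -1.01, just beyond 2-fold.

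**Figure D1:**
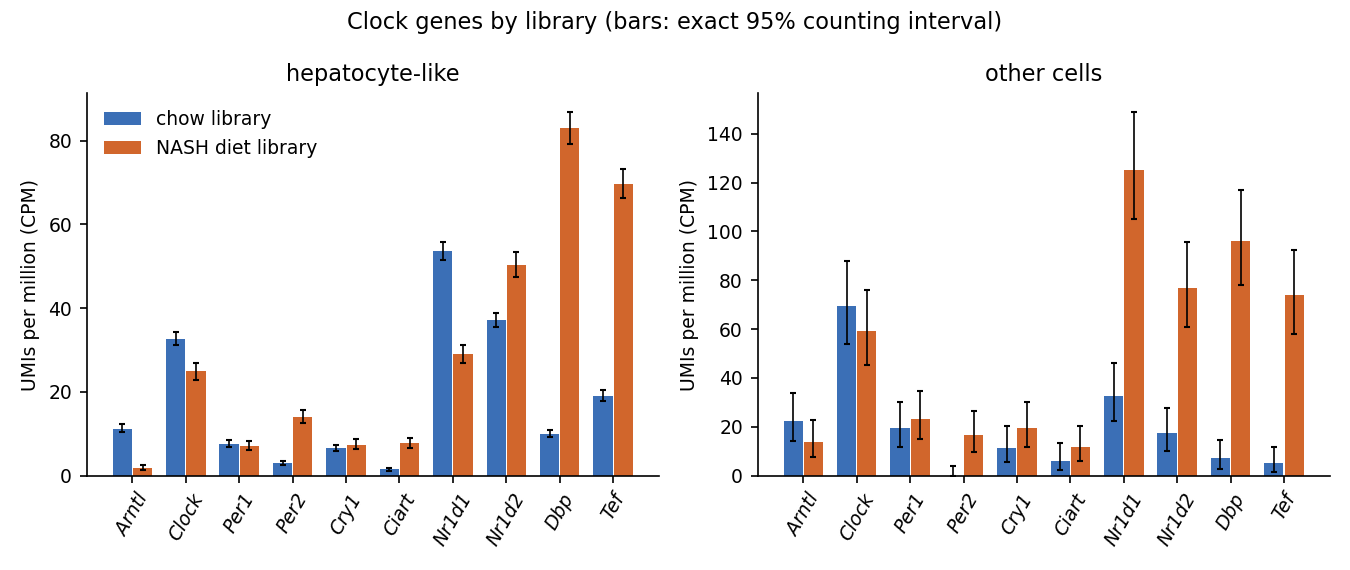
Level of each gene in CPM (vertical axis), in hepatocyte-like cells (left) and in endothelial-like, mononuclear phagocyte-like and mesenchymal-like cells pooled (right) of the chow (blue) and NASH diet (orange) libraries; bars are summed UMIs over the total and lines the exact 95% counting interval. In hepatocyte-like cells Dbp stands at 10.0 CPM in chow and 83.1 CPM with the NASH diet, and Arntl at 11.2 and 1.88 CPM.

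Dbp and Nr1d1 each overlap a gene on the opposite strand. The end of Dbp shares 737 bases with Sphk2 (chr7:45709467-45710203) and that of Nr1d1 shares 1075 bases with Thra (chr11:98767932-98769006). Whether the counting used strand is not stated in the labels. The Ciart promoter stretch shown above lies in an intron of C920021L13Rik, whose overlap with Ciart itself was not examined. Sphk2 was at 28.6 CPM in chow and 21.7 CPM with the NASH diet in hepatocyte-like cells, and Thra at 4.88 and 4.96 CPM. Both partners lay within 2-fold, with log2 ratios of -0.40 and 0.02.

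The same differences stood in the share of cells with a UMI at equal depth. Each hepatocyte-like cell of at least 5000 UMIs was thinned to 5000 UMIs, which kept 1839 chow and 1025 NASH diet cells and left out 244 and 48. Dbp was then found in 4.24% of the chow cells (exact binomial interval 3.37 to 5.27) and in 32.9% of those on the NASH diet. Without thinning the shares were 17.4% and 73.7%. Tef was found in 8.65% and 30.5% of thinned cells, Per2 in 1.69% and 7.12% and Ciart in 0.924% and 4.0% (32.3% and 69.7%, 5.86% and 24.9%, and 3.07% and 15% without thinning). For Arntl the chow share was 5.33% (4.35 to 6.46) and that with the NASH diet 1.17% (0.606 to 2.04), and for Nr1d1 they were 22.7% and 13.1% (21.8% and 3.82%, and 60.8% and 39.4%, without thinning). Clock genes are active in nearly all cell types, so no class here gives their level from free RNA alone. The variance of thinned Dbp counts divided by their mean was 1.20 in chow and 1.01 with the NASH diet, where counting alone gives 1. No chow cell held more than 3 thinned Dbp UMIs and no NASH diet cell more than 4.

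**Figure D2:**
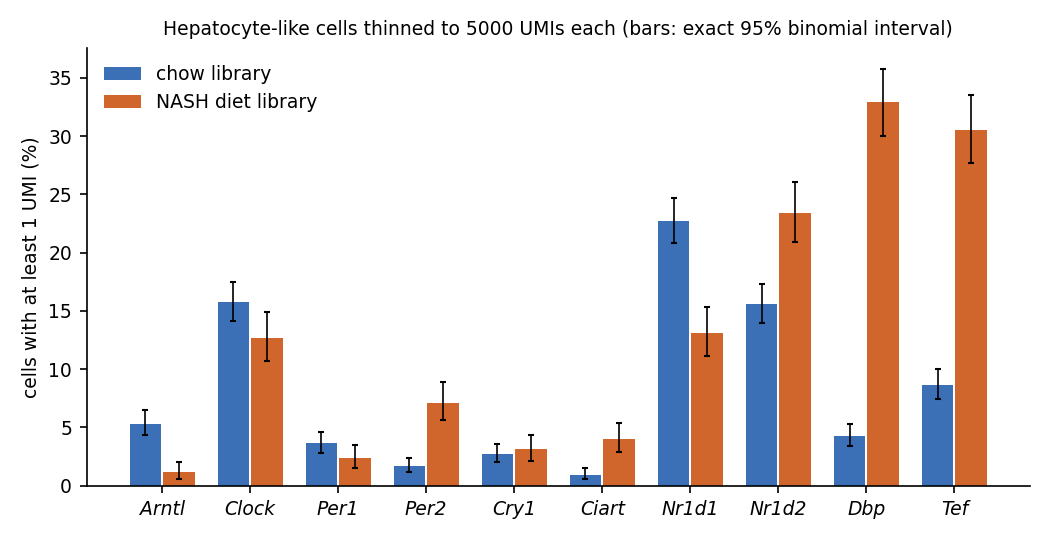
Share of hepatocyte-like cells with at least 1 UMI of each gene (vertical axis, percent) after every cell was thinned to 5000 UMIs, chow in blue and NASH diet in orange, with exact 95% binomial intervals. The shares are 4.24% and 32.9% for Dbp and 5.33% and 1.17% for Arntl.

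Mitochondrial share and depth differed between the libraries, so the ratios were also taken within bins of both. Among hepatocyte-like cells with under 10%, 10 to 20% and 20 to 30% mitochondrial UMIs, the log2 ratio of Dbp was 3.91, 3.07 and 3.20, and that of Arntl -3.68, -2.90 and -2.44. Nr1d1 stayed lower in each bin, at -0.80, -0.72 and -0.90. The lowest bin held only 17 and 1 Arntl UMIs, and its interval ran from -9.07 to -1.01. In cells of 5000 to 20000 UMIs the log2 ratio was 3.08 for Dbp and -3.56 for Arntl, and above 20000 UMIs it was 3.02 and -2.30. Dbp was also higher in cells the filters had left aside: in barcodes with 30 to 80% mitochondrial UMIs it gave 21 and 446 UMIs, a log2 ratio of 3.32 (2.69 to 4.02). There 5 of the 10 genes were at least 2-fold higher, against 12.4% of genes tested, and only Arntl was lower at -2.74, against 3.32%. The fifth was Per1, at 1.26 (0.31 to 2.34). In low-UMI clusters of hepatocyte RNA, Dbp gave 12 and 199 UMIs and Nr1d1 39 and 21, log2 ratios of 3.91 and -1.04. Of the 5 genes tested there 2 were higher (Dbp and Tef), against 7.36% of 6279 genes, and 1 lower (Nr1d1), against 8.47%.

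In the other cells Dbp and Tef were higher with the NASH diet too, and Nr1d1, lower in hepatocyte-like cells, was higher. Pooled over endothelial-like, mononuclear phagocyte-like and mesenchymal-like cells, 8 of the 10 genes reached 20 UMIs. Of these, 4 were at least 2-fold higher with the NASH diet (Tef, Dbp, Nr1d2 and Nr1d1), against 5.97% of 9240 genes, and 0 were as much lower, against 5.83%, or 11.8% in either direction. With each cell thinned to 1000 UMIs in a single random draw, none of the 10 genes reached 20 UMIs, so these counts rest on the full depth. Another draw may differ for a gene near that minimum. Dbp was at 2.05 and Tef at 1.41 on the log2 scale when thinned. Phagocyte markers also differed in the pooled cells, with all 14 detected and sums of 15854 CPM in chow and 3940 CPM with the NASH diet. Dbp gave 7 UMIs in chow and 99 with the NASH diet, levels of 7.14 and 96.1 CPM and a log2 ratio of 3.75 (2.65 to 5.10). Tef gave 5 and 76 UMIs, at 3.85 (2.57 to 5.52). Among the 9240 ratios Tef ranked 8 and Dbp 10 from the highest.

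Nr1d1 gave 32 UMIs in the chow and 129 in the NASH diet other cells, or 32.6 and 125 CPM, a log2 ratio of 1.94 (1.37 to 2.55). In hepatocyte-like cells of the same libraries it was -0.89. Nr1d2 was higher as well, with 17 and 79 UMIs and a log2 ratio of 2.14 (1.38 to 2.99). The positive limb and Per1 and Cry1 lay within 2-fold with wide intervals: Arntl -0.72 (-1.80 to 0.31), Clock -0.23 (-0.75 to 0.29), Per1 0.26 (-0.66 to 1.21) and Cry1 0.79 (-0.34 to 2.0). Without the mononuclear phagocyte-like class Arntl was at -1.57. Per2 gave 0 UMIs in chow (upper limit 3.76 CPM) and 17 with the NASH diet, too few to be tested. With the chow count set to 3 it was 5.39-fold higher with the NASH diet, a log2 ratio of 2.43. The exact interval of its log2 ratio starts lower, at 1.97, so 5.39-fold is not a lower limit. Ciart, at 6 and 12 UMIs, was too sparse to place (0.93, -0.60 to 2.63).

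Hepatocyte RNA was present in the other cells, since the hepatocyte markers reached 6.94% of their hepatocyte-like level in chow and 5.53% with the NASH diet. At those shares the hepatocyte-like level would give 0.694 CPM of Dbp in chow and 4.60 CPM with the NASH diet, against the 7.14 and 96.1 CPM measured. For Nr1d1 it would give 3.73 and 1.60 CPM, against 32.6 and 125 CPM. The levels of Dbp and Nr1d1 measured in other cells were above these in both libraries, with Dbp in chow on 7 UMIs. Per2 in chow, measured at 0 CPM, was below its value of 0.201 CPM. The part of hepatocyte RNA in the clock gene ratios of other cells was not tested.

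By class, endothelial-like cells (66 chow, 53 NASH diet) showed 4 of 5 genes tested at least 2-fold higher, against 7.43% of 5182 genes, and 0 lower, against 5.75%. Dbp gave 4 and 57 UMIs, Nr1d1 21 and 74 and Nr1d2 6 and 36, with log2 ratios of 3.42 (1.99 to 5.35), 1.41 (0.69 to 2.18) and 2.18 (0.92 to 3.71). Tef gave 2 and 39 UMIs, a log2 ratio of 3.88 (1.93 to 6.97). Cycling markers also differed in this class, with 4 of 7 detected and a sum of 18.9 CPM in chow against 7 of 7 and 1031 CPM with the NASH diet, and their part in the ratios was not tested. The 18 chow and 19 NASH diet mesenchymal-like cells are below the minimum of 20 set for a class. Of 5 genes tested there 4 were at least 2-fold higher, against 6.61% of 4205, and 0 lower, against 6.73%. Markers of other cells were present too, with all 14 phagocyte markers detected and sums of 8633 CPM in chow and 2473 CPM with the NASH diet, all 13 endothelial markers at 8223 and 8314 CPM, and mesenchymal markers at 17975 and 17730 CPM. Their part in the ratios was not tested. The mesenchymal-like cells held 1 and 36 Dbp UMIs, a log2 ratio of 4.38 (1.81 to 9.72), and 7 and 49 of Nr1d1, one of 2.02 (0.87 to 3.40). Arntl gave 9 and 1 UMIs, a log2 ratio of -3.96 (-9.42 to -1.11).

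Mononuclear phagocyte-like cells held few UMIs of these genes. In 90 chow and 94 NASH diet cells only Clock and Per1 reached 20 UMIs, and both lay within 2-fold (-0.72 and -0.06), where 5.71% of 5953 genes were higher and 15.1% lower. Dbp gave 2 and 6 UMIs there (log2 ratio 2.05, -0.43 to 5.39) and Nr1d1 4 and 6 (1.05, -1.02 to 3.32). Tef, higher in the pooled cells, gave 3 and 2 UMIs in this class (-0.12, -3.70 to 3.01). The class was not alike in the 2 libraries: all 14 phagocyte markers were detected in both, but summed to 25347 CPM in chow and 7447 CPM with the NASH diet, and B or plasma cell markers to 2341 and 4922 CPM. Its makeup and the diet cannot be told apart.

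**Figure D3:**
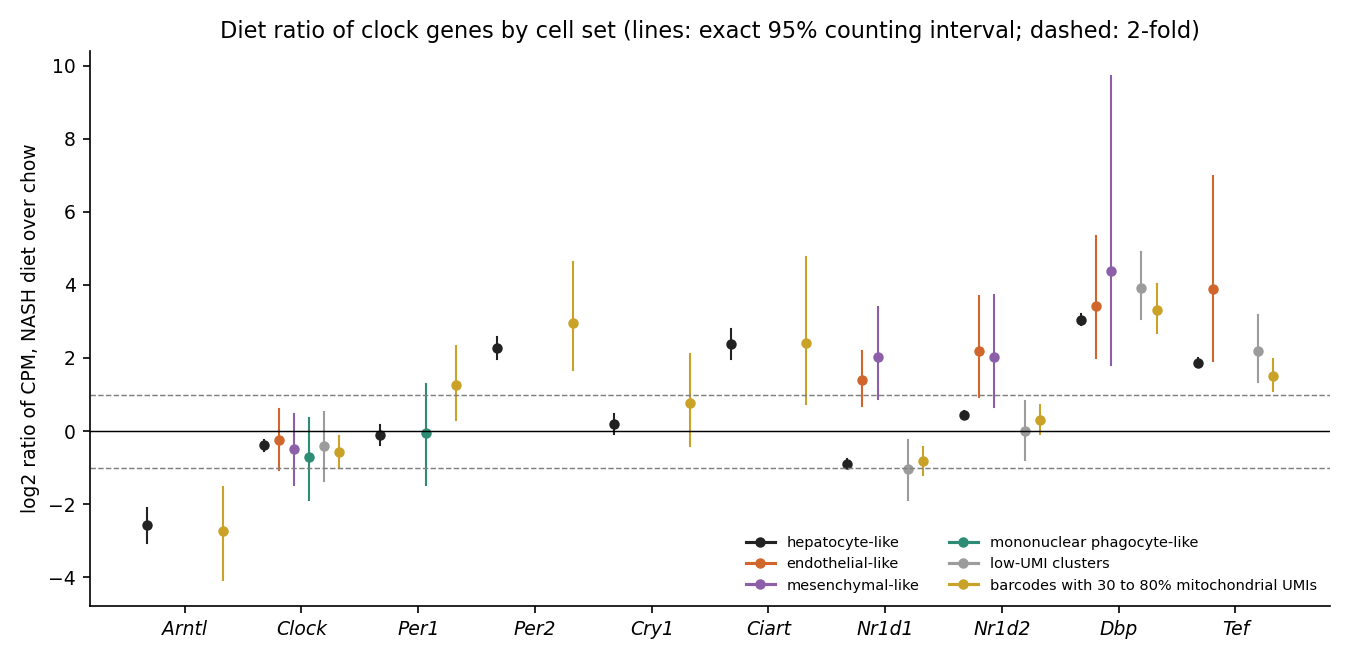
Log2 ratio of CPM, NASH diet over chow (vertical axis), for each gene in 6 sets of cells (colours); points are the ratio of summed UMIs, lines its exact 95% counting interval and dashed lines 2-fold. Genes under 20 UMIs in a set, or at 0 in a library, are left out. Dbp lies above 2-fold in each of the 5 sets that have a point for it, while Nr1d1 is below 0 in hepatocyte-like cells and above 2-fold in endothelial-like and mesenchymal-like cells.

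Within the hepatocyte-like cells, several of the genes varied with the markers of position in the liver lobule. Cells of at least 5000 UMIs were ordered within each library by the share of pericentral genes (such as Glul and Cyp2e1) among pericentral and periportal UMIs, and split into 3 equal groups called portal, middle and central. The limits fell at 3.57% and 67.1% pericentral in chow and at 2.37% and 45.2% with the NASH diet, and 462 of 1833 and 359 of 1022 cells lay within 2 percentage points of one, so the groups are ranges and not types. The median cell of the portal groups held 4101 and 5773 CPM of the periportal genes, and that of the central groups 672 and 747 CPM.

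In chow, Dbp was highest in the portal group, at 13.9 CPM, with 11.0 CPM in the middle and 5.50 CPM in the central one. The portal level was 2.53-fold the central one, a log2 ratio of 1.34 (0.98 to 1.71). Ciart followed the same order, at 2.51, 1.43 and 0.505 CPM on 41, 20 and 8 UMIs, with a log2 ratio of 2.31 (1.20 to 3.62). Per2 was at 3.55, 3.50 and 1.64 CPM, a log2 ratio of 1.11 (0.42 to 1.84). Arntl at -0.17 (-0.47 to 0.14) and Nr1d1 at 0.04 (-0.09 to 0.18) had intervals that held 0. Median mitochondrial share was 17.6% in the portal and 20.5% in the central chow group.

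With the NASH diet the 3 groups were closer for these genes. Dbp was at 78.5, 82.6 and 83.6 CPM from portal to central, a log2 ratio of -0.09 (-0.26 to 0.07), Ciart at 7.38, 8.14 and 7.89 CPM and Per2 at 15.2, 14.3 and 13 CPM. The Rev-erb genes, Per1 and Per3 were higher in the central group: Nr1d1 was at 22.7, 22.5 and 38.7 CPM, a portal over central log2 ratio of -0.77 (-1.05 to -0.49), and Nr1d2 at 43.2, 47.8 and 58.2 CPM, at -0.43 (-0.64 to -0.22). Per1 was at 4.92, 7.24 and 8.58 CPM, at -0.80 (-1.43 to -0.20), and Per3 at 9.99, 14.8 and 16.9 CPM, at -0.76 (-1.20 to -0.34). Cry1 leaned to the portal side in both libraries, at 0.65 (0.22 to 1.09) in chow and 0.73 (0.17 to 1.31) with the NASH diet. By position, the diet ratio of Dbp was 2.5 (2.27 to 2.73) in the portal, 2.91 (2.65 to 3.18) in the middle and 3.93 (3.61 to 4.27) in the central group on the log2 scale. Nr1d1 was at -1.27 (-1.52 to -1.02), -1.26 (-1.53 to -1.01) and -0.45 (-0.64 to -0.27), so that it passed 2-fold lower in the portal and middle groups only. Groups of the same name cover unlike ranges, since the central one starts at 67.1% pericentral in chow and at 45.2% with the NASH diet. Whether these ratios differ beyond the spread between animals was not tested.

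**Figure D4:**
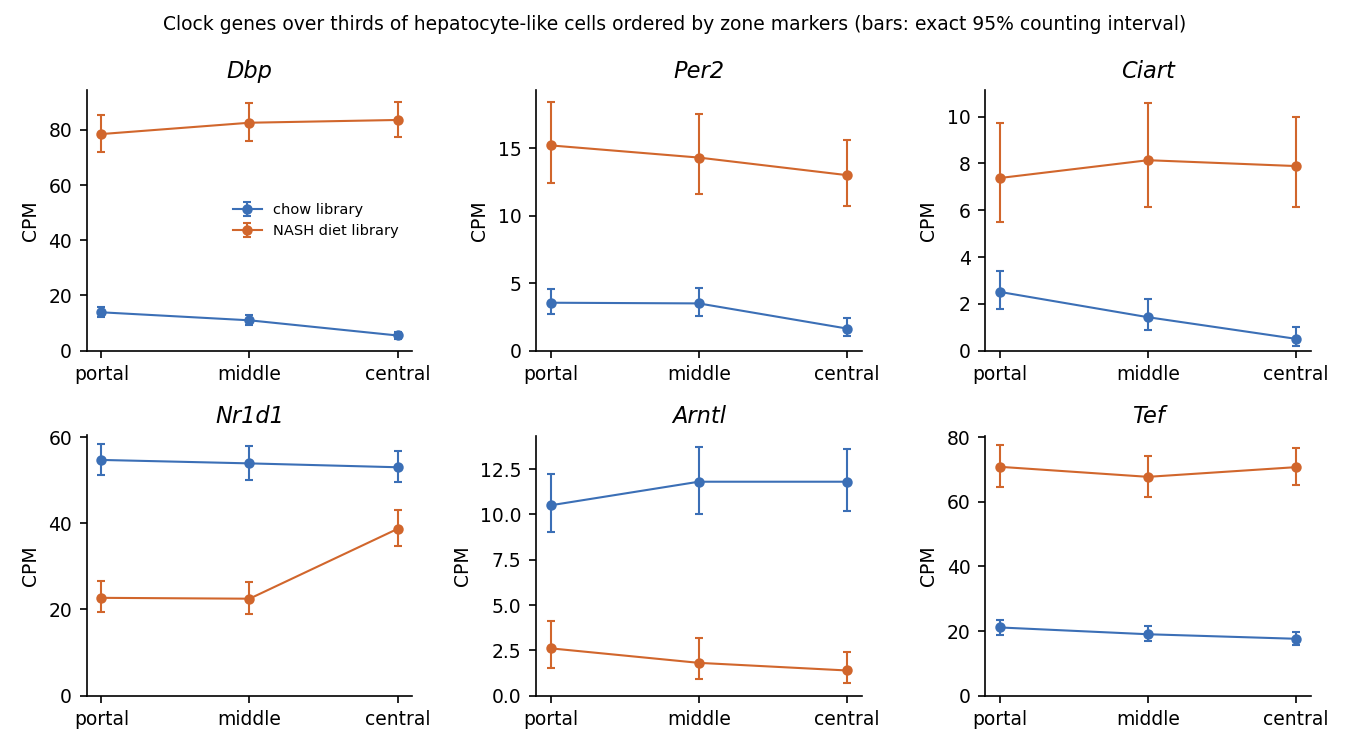
Level in CPM (vertical axis, each starting at 0) of 6 genes in the portal, middle and central groups of hepatocyte-like cells, chow in blue and NASH diet in orange, with exact 95% counting intervals. In chow Dbp goes from 13.9 to 5.50 CPM from portal to central, and with the NASH diet from 78.5 to 83.6 CPM.

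Another 24 genes of the loop and its outputs were split as well in hepatocyte-like cells. At least 2-fold higher with the NASH diet were 10, against 5.94% of all genes tested, and 3 were at least 2-fold lower, against 3.94%. The 11 others lay within 2-fold, and the median log2 ratio was 0.29, against 0.12 over all genes. Usp2, a deubiquitinase under clock control, had the highest ratio, at 98 and 895 UMIs and 2.09 against 40.0 CPM, a log2 ratio of 4.26 (3.95 to 4.57). Wee1, a cell cycle kinase gene driven through E-boxes, gave 51 and 284 UMIs, at 3.54 (3.11 to 4.0). Per3, whose D-boxes are printed above, gave 98 and 322 UMIs, at 2.78 (2.45 to 3.12). Bhlhe41, an E-box repressor, was at 1.84 (1.46 to 2.22), and Hlf, the PAR bZIP relative of Dbp and Tef, at 1.11 (1.01 to 1.21). Noct, Nampt, Alas1 and Cys1 were also at least 2-fold higher, between 1.0 and 1.34.

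The 3 at least 2-fold lower were Npas2, Nfil3 and Lpin1. Npas2, the paralog of Clock, gave 58 UMIs in chow and 1 with the NASH diet, a log2 ratio of -4.79 (-10.12 to -2.26). Nfil3, a repressor of D-box genes, gave 1432 and 290 UMIs, or 30.5 and 12.9 CPM, at -1.24 (-1.43 to -1.06). Lpin1, a phosphatidate phosphatase, was at 102 and 45.1 CPM, at -1.18 (-1.28 to -1.08), and Rora, an activator of Arntl, was within 2-fold at -0.52 (-0.60 to -0.44). Of the 5 genes listed as peaking near the start of the light phase (Arntl, Clock, Npas2, Nfil3 and Cry1), 3 were at least 2-fold lower (3.94% of all genes) and 0 higher (5.94%), with a median of -1.24 against 0.12 over all genes. Another 11 were listed as peaking later in the light phase or at its end (both Rev-erb genes, Dbp, Tef, Hlf, Ciart, the 3 Per genes, Usp2 and Bhlhe41). Of these 11, 8 were at least 2-fold higher and 0 lower, with a median of 1.87, beside the same shares and median of all genes. Nr1d1 and Per1 were the 2 genes of the later list with ratios below 0. The lists hold all 10 genes described above and are no independent evidence of a direction. They are coarse groups set as background, and no gene's peak time, that of Cry1 included, was measured here.

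In other cells the 24 genes gave 17 with at least 20 UMIs, of which 3 were at least 2-fold higher (Hlf, Per3 and Rora), against 5.97% of all genes, and 0 lower, against 5.83%. Their median was 0.33, against -0.00 over all genes. Per3 gave 5 and 38 UMIs, at 2.85 (1.51 to 4.56), and Hlf 3 and 26, at 3.04 (1.34 to 5.41). Usp2, the highest in hepatocyte-like cells, was at 12 and 11 UMIs and -0.20 (-1.52 to 1.11).

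**Figure D5:**
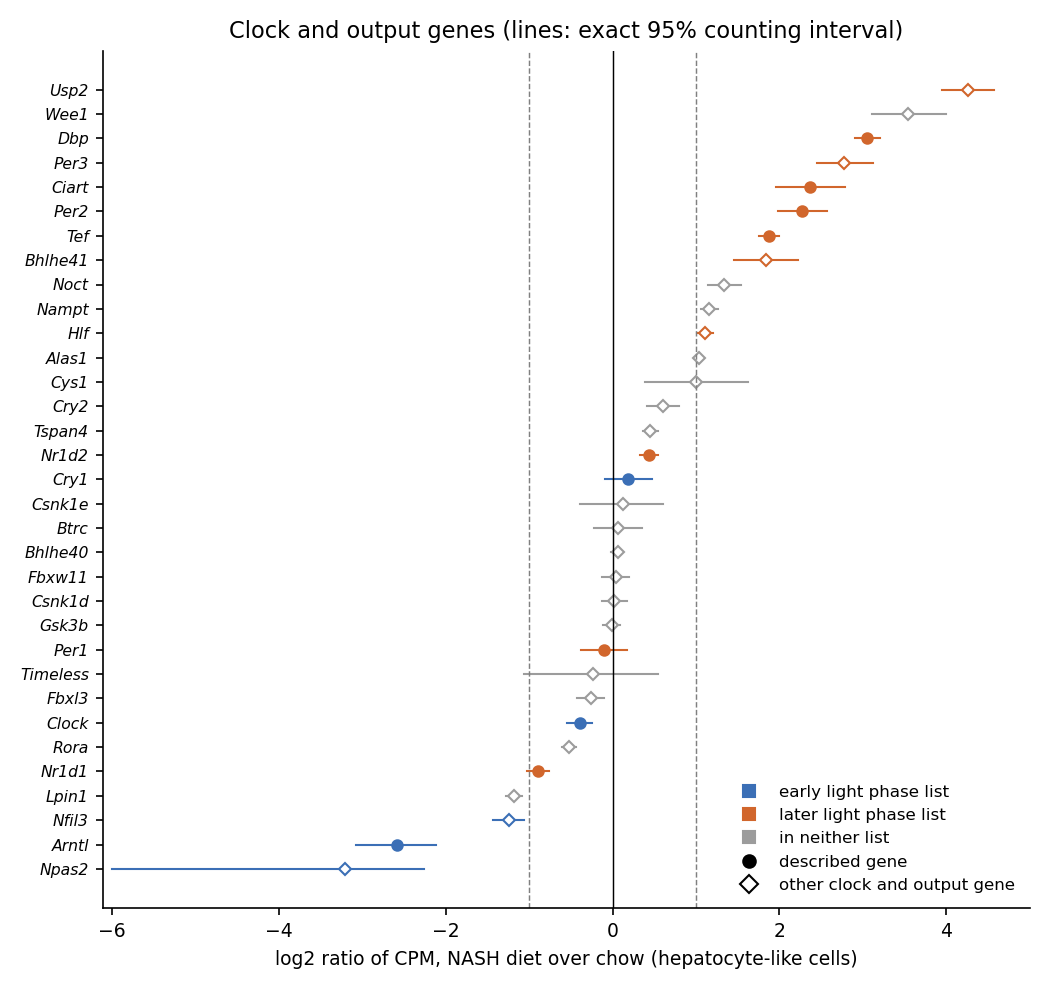
Log2 ratio of CPM, NASH diet over chow (horizontal axis), in hepatocyte-like cells for clock and output genes ordered by it (not every listed gene is drawn); filled circles are the 10 genes, open diamonds others of the loop and its outputs, lines exact 95% counting intervals (that of Npas2 runs on to -10.12) and dashed lines 2-fold. Counts under 3 are set to 3 for the point, which places Npas2 at -3.21. Genes listed for the early light phase (blue) lie at or left of 0.19, and 8 of 11 listed for the later light phase or its end (orange) lie right of 1.

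Lists of genes that follow fasting, feeding, glucocorticoids or the handling of cells were read beside the clock genes in hepatocyte-like cells, where 5.94% of all genes were at least 2-fold higher and 3.94% lower, with a median of 0.12. Of 14 fasting-induced genes 1 was at least 2-fold higher and 2 lower, with a median log2 ratio of 0.01. Pdk4, which spares glucose, was at 1.30, while the insulin-repressed Igfbp1 was at 201 and 18.0 CPM, at -3.48 (-3.63 to -3.34), and Cdkn1a, a cell cycle inhibitor, at -2.37. Of the 10 feeding-induced genes tested (of 11 listed) 1 was higher, Thrsp, a lipogenic factor, at 1.28 (1.22 to 1.34), and 0 lower, with a median of 0.25. Srebf1, next highest, was at 0.83, and Acly and Fasn, both of fatty acid synthesis, lowest at -0.96 and -0.52. Of 8 glucocorticoid-induced genes, Per1 among them, 4 were lower and 1 higher, with a median of -0.78. Mt2, a metallothionein, was at -2.77 and the kinase gene Sgk1 at -1.98, with Sult1e1 highest at 3.31 and Fkbp5 next at 0.44. Of 14 immediate early genes, which mark handling of cells, 1 was lower (Egr1, -1.16) and 0 higher, with a median of -0.34. Zfp36 was at -0.85, and the highest were Nr4a1 at 0.07 and Dusp1 at 0.03. What part feeding state, hormones or tissue handling had in the clock gene ratios was not tested.

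In other cells, where 5.97% of all genes were higher and 5.83% lower with a median of -0.00, the fasting-induced list gave 1 gene higher and 2 lower of 8 (median -0.07) and the feeding-induced list 2 higher and 0 lower of 7 (median 0.16). Glucocorticoid-induced genes were 0 higher and 3 lower of 6 (median -0.67). Hepatocyte RNA was present in these cells, at 6.94% (chow) and 5.53% (NASH diet) of the hepatocyte-like marker level. Its part in the counts of these lists was not tested. Immediate early genes were 4 higher and 0 lower of 14, with 13 of 14 ratios above 0 and a median of 0.91, and their part in the clock gene ratios of these cells was not tested.

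Likeness to Dbp was measured as the Euclidean distance of log2 ratios over 3 sets of cells (hepatocyte-like, other cells and low-UMI clusters) among 5462 genes with at least 20 UMIs in each. Nearest to Dbp were Acaa1b (distance 0.901), a peroxisomal thiolase, Scd1 (1.47), a fatty acid desaturase, Tef (2.08), Cyp4a10 (2.12), a fatty acid hydroxylase, and Apoa4 (2.13), an apolipoprotein. Acaa1b was at 3.1, 3.23 and 3.17 in the 3 sets, where Dbp was at 3.05, 3.75 and 3.91. The 3 sets share hepatocyte RNA and are not independent. Hepatocyte markers reached 83.9% (chow) and 73.5% (NASH diet) of their hepatocyte-like level in the low-UMI clusters, and 6.94% and 5.53% in other cells. What part this RNA had in the ratios of the genes nearest to Dbp was not tested. Arntl had only 9 and 0 UMIs in the low-UMI clusters, under the minimum of 20, so no likeness to it is given. Cyp4a10 belongs to a family whose near-identical copies can share reads, so its own values are uncertain.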

How the data were processed

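Single-cell RNA was counted in 1 chow and 1 NASH diet library of mouse liver. The authors' deposited matrices hold UMI counts, stored as integers per the file headers, whose totals differ between barcodes and libraries. They were made on build mm10 with Cell Ranger 3.1.0, per the submitters' processing notes, while the matrix headers carry software version 3.0.2. The notes also name Seurat. A merged matrix holds 86.4% of the chow UMIs and served as an alternative.

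Kept barcodes had 200 genes or more, 500 UMIs or more and a mitochondrial share of up to 30%. Scrublet (scanpy 1.11.5) called 0 doublets in either library, so its threshold did not work here, and the 433 chow and 277 NASH diet barcodes with the highest scores (0.8% per 1000 barcodes) were removed. Both libraries were clustered together without integration (2000 variable genes, 30 principal components, 15 neighbours, Leiden resolution 1.0, igraph 0.11.9, seed 0). Clusters were named from marker lists (at least 3 markers in 20% of cells, a threshold set after the clusters had been seen), and low-UMI clusters, at 1740 chow and 973 NASH diet barcodes, stayed out of the classes. An unnamed cluster led by nuclear RNA (25 and 76 barcodes), another unnamed cluster and the clusters of cycling-like and erythroid-like cells were left out of both classes. The marker rule was built for these data, so a class may differ from the study's own.

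Summed counts gave CPM and the ratio of NASH diet over chow. A gene was tested with at least 20 UMIs over both libraries and called at 2-fold, with counts under 3 set to 3 for the call. There is no p-value or standard error, since each diet has 1 library and cells are not replicates. Intervals are exact at 95% (scipy 1.17.1). The calculation was tested on simulated data. Gene positions are from GENCODE M21 (GRCm38), in which all 10 genes were found by gene ID. The members, gene lists, markers and alternatives were chosen with earlier results of these data known. Named genes were the 10 members, of the other clock genes the 4 highest and 4 lowest ratios with Npas2, Per3, Nfil3, Hlf and Usp2, of the other lists the 2 highest and 2 lowest in hepatocyte-like cells, and the 5 nearest to Dbp. The 5 nearest to Arntl, also planned, are not given, since it had too few UMIs in 1 of the 3 sets of cells. The called genes Noct, Nampt, Alas1, Cys1 and, in other cells, Rora were named after their values were seen. Single values of some listed genes are not reported here.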

Additional observations from a re-analysis of the deposited data

Results flagged for a closer look

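Nr1d1 went in opposite directions in the 2 kinds of cells: its log2 ratio of NASH diet over chow was -0.89 in hepatocyte-like cells and 1.94 in other cells. With 1 library per diet this difference was not tested. By class Nr1d1 was at 1.41 (0.69 to 2.18) in endothelial-like and 2.02 (0.87 to 3.40) in mesenchymal-like cells. In mononuclear phagocyte-like cells it was at 1.05 (-1.02 to 3.32), on 4 and 6 UMIs. That class held 555366 of the 980132 pooled UMIs in chow and 401630 of 1030402 with the NASH diet. The part of this unequal mix in the pooled ratio was not tested. Over 18 other settings the ratio in hepatocyte-like cells stayed below 0, from -1.01 to -0.22, and over 16 it stayed above 0 in other cells, from 0.97 to 2.12.

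An unnamed cluster led by nuclear RNA such as Malat1 and Neat1, used in no comparison above, held 25 chow and 76 NASH diet barcodes. In its NASH diet barcodes Tef was at 418 CPM, Dbp at 241 CPM, Ciart at 113 CPM and Per2 at 107 CPM, each above the level in the chow barcodes of the same cluster (70.4, 35.2, 17.6 and 8.80 CPM). The NASH diet levels are also above those of hepatocyte-like cells of that library, and 40.4% of genes tested in the cluster were at least 2-fold higher with the NASH diet. Its chow levels rest on 8, 4, 2 and 1 UMIs.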

How the results depend on the processing

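Of 567 values recomputed under other settings, 511 moved by less than their counting interval (or, for counts, less than 1.5 times), 55 moved by more and 1, the ratio of Npas2, went from beyond 2-fold to the other sign. Ratios within 2-fold that changed sign are counted among the others. Dbp, Tef, Per2, Ciart, Arntl, Nr1d1, Nr1d2 and Cry1 kept their direction in hepatocyte-like cells under all 18 settings, while Per1 kept it in 13 and Clock in 17. In other cells Clock kept it in 15 of 16, Per1 in 13 and Cry1 in 14. With a mitochondrial limit of 10% Per1 was at 1.32 in hepatocyte-like cells, which makes 5 members higher in place of 4 and 6 different in place of 5. The share of all genes called was not computed under this or any other alternative setting. The member counts under those settings thus have no background beside them. The ranges there were 2.55 to 3.92 for Dbp, 0.97 (a pseudocount of 5 CPM) to 2.97 for Ciart and -2.72 to -1.24 for Arntl. Relative to the median of all genes, 2 members in place of 1 were at least 2-fold lower in hepatocyte-like cells, the second being Nr1d1 at -1.01. In other cells, with each cell thinned to 1000 UMIs in a single random draw, no member reached 20 UMIs, which leaves 0 different and 0 higher in place of 4. With mitochondrial limits of 50% or none, and without the mononuclear phagocyte-like class (an alternative added after seeing the data), 1 member, Arntl, was at least 2-fold lower there in place of 0, at -1.15, -1.36 and -1.57. The median of the other clock genes was 0.14 with a pseudocount of 5 CPM, 0.17 relative to the median of all genes and 0.70 with a mitochondrial limit of 10%, against 0.29, and Npas2 reversed to 0.70 under that limit, on under 20 UMIs, which left hepatocyte-like cells of unequal depth (medians of 669 and 6003 UMIs). The cause was not tested. No paired analysis was possible because each diet has 1 library. Depth limits Per2, Ciart and every gene in single classes of other cells.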
